A study of Mus musculus with 18 samples.

Results

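The immediate early response genes described here were Jun, Junb, Jund, Fos, Fosb, Fosl2, Egr1, Ier2, Ier3 and Gadd45b, chosen as a named list of symbols, and all 10 of 10 were among the 23474 genes of the deposited mouse table. RNA was measured in epididymal adipose tissue, the fat pad beside the epididymis, and in liver of male C57BL/6J mice that were 17 weeks old after 12 weeks on a diet. The GT mice ate a high-fat diet to which an ethanol extract of green tea was added at 0.25% by weight, the HFD mice ate the high-fat diet alone, and the ND mice ate a normal diet. The mice of all 3 diets were of 1 inbred strain and 1 sex. Each tissue of each diet had 3 libraries, 18 in all. Whether a library stands for 1 mouse is not stated in the labels. The p-values therefore reflect spread among libraries, part of which may be technical.

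Immediate early genes are transcribed within minutes of a stimulus, such as a growth factor, a cytokine or a cell stress, without a need for new protein synthesis, and most of their mRNAs are short-lived. Fos, Fosb and Fosl2 encode leucine-zipper proteins that pair with Jun, Junb or Jund to form AP-1, a transcription factor, and the Jun proteins can also pair with each other. Egr1 is a zinc-finger transcription factor, Ier2 a nuclear protein, Ier3 a short-lived stress-induced protein linked to cell survival, and Gadd45b a stress-induced partner of kinases of the p38 and JNK pathways. In fat and liver this class of genes is known as an early readout of inflammatory, hormonal and metabolic signals.

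Promoter sequences, from 250 bases before to 50 bases after the transcription start, were found for 8 of the 10 members, all but Egr1 and Ier2, in RefSeq's table for GRCm38.p6. The promoters of Fos (chr12:85473640-85473939, plus strand), Junb (chr8:84978699-84978998, minus strand) and Gadd45b (chr10:80929841-80930140, plus strand) are shown because these 3 members rose together on the high-fat diet in adipose tissue. They are written 5′ to 3′ in the direction of the gene. Capitals mark TGACG, the first 5 letters of the cyclic AMP response element, in Fos and Junb, and an EGR site, here on the opposite strand, in Gadd45b.
Fos: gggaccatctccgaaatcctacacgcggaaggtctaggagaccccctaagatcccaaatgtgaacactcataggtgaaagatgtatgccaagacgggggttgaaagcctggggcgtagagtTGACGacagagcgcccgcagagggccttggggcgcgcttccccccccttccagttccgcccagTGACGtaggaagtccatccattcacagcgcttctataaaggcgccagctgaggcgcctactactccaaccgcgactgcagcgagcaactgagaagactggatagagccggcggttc
Junb: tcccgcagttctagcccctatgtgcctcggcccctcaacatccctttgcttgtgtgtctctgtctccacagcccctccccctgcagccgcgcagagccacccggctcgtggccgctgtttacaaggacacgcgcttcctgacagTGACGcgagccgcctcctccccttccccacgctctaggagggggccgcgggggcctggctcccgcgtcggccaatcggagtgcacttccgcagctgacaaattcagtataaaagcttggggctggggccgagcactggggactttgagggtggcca
Gadd45b: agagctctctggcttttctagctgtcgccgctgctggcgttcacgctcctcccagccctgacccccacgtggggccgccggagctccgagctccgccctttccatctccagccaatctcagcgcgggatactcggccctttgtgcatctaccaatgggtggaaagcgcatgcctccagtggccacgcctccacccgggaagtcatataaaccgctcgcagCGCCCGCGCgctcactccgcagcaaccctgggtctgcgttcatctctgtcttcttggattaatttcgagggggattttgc
The 4 motifs searched first, on both strands, were the CArG box bound by serum response factor, the full cyclic AMP response element TGACGTCA, the AP-1 site TGANTCA and the EGR site GCGNGGGCG. The EGR site lay in the promoters of Fosb, Fosl2 and Gadd45b, 3 of 8, and in 5.55% of 32851 promoters of the same length. Its letters are nearly all G and C, which made up 68.3%, 64.7% and 62% of these 3 promoters. In the other members found, G and C made up between 46.7% (Jund) and 65.3% (Junb). The share over all promoters was not matched for G and C. The other 3 motifs lay in none of the 8, and in 1.63%, 1.79% and 7.81% of all promoters in the order given. TGACG, a search added after the data were seen, lay in Junb from base -106, in Fos from bases -129 and -66 and in Fosb from base -60, which is 3 of 8 promoters against 20.8% of all. Matches to TGACG include any full TGACGTCA. These matches describe letters in a 300-base window.

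The files hold FPKM, a level scaled by transcript length and by the number of mapped fragments, and no read numbers, so the depth of a library is unknown. Summed FPKM ran between 527904 and 608819 in 8 adipose libraries and between 680168 and 930139 in the 9 liver libraries. Adipose ND 1 stood apart with 1002765. Its summed testis markers reached 99759 FPKM, against 3034 in ND 3, 2107 in HFD 1 and at most 175 in the other adipose libraries. Its summed epididymis markers reached 19468 FPKM, against 1172 in HFD 2, nearly all of it Crisp1, and at most 12.7 in the other adipose libraries, and its summed adipocyte markers reached 7502 FPKM, against 17605 to 37228 in the other 8. Adipose results are therefore given with and without ND 1. All 8 hepatocyte markers reached 1 FPKM in 8 of the 9 liver libraries. Liver HFD 3 had the lowest summed hepatocyte markers, 19710 FPKM against 39601 to 51158 in the others. Its Alb was listed at 0, against 21156 to 28177 FPKM in the other liver libraries, while its Apoa1, at 6645 FPKM, was within their range of 4390 to 9069 FPKM. In liver, muscle markers reached a sum of 110 FPKM in HFD 2, 48.9 in GT 3 and 23.4 in HFD 3, with no more than 3.36 in the rest.

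In adipose tissue Fos, Junb, Egr1 and Gadd45b rose on the high-fat diet, Fos by far the most. That is 4 of the 9 members tested, where 5.28% of 13762 genes rose. A gene was called when its adjusted p was under 0.05 in limma, fitted over all genes of the tissue on log2(FPKM + 1) with Benjamini-Hochberg adjustment, so each log2 change below is on that scale, which understates changes of low genes. Fosb, which reached 1 FPKM only in ND 3, was not tested. Without ND 1 the same 4 members and Jund rose and Ier3 fell, against 15.9% of genes that rose and 8.39% that fell. The median log2 change over the 9 members was 1.21, against 0.13 over all genes, and without ND 1 it was 1.22 against -0.02.

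**Figure D1:**
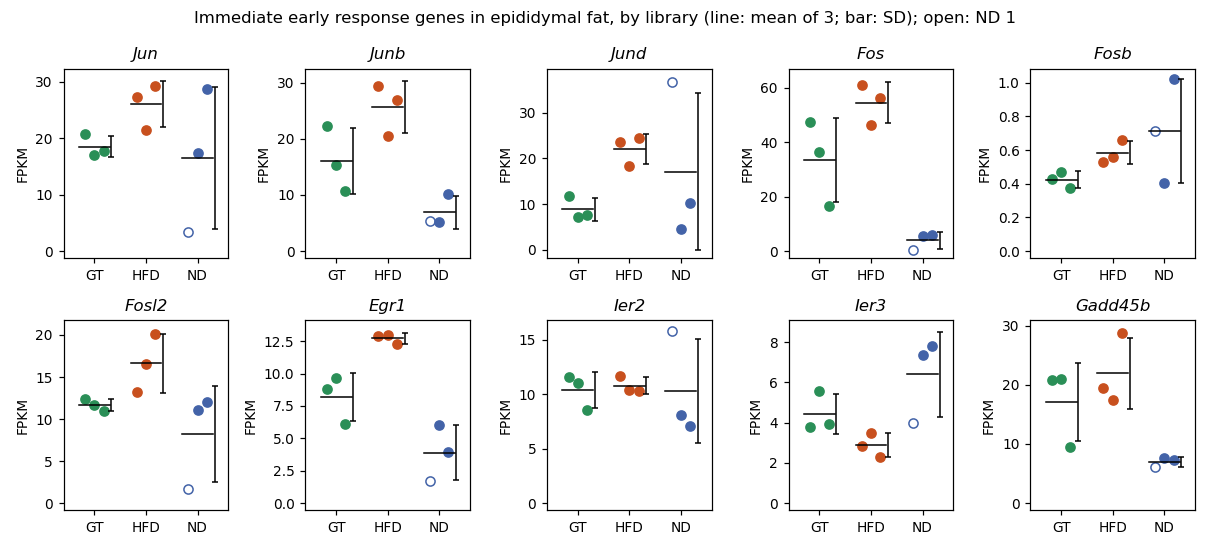
FPKM of each of the 10 members in the 9 adipose libraries, by diet (GT, HFD, ND), with 1 point per library, a line at the mean of 3 and a bar of 1 SD. Open circles are ND 1, which is the lowest library for Jun, Fos, Fosl2, Egr1 and Gadd45b and the highest for Jund and Ier2.

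Among the Fos family, Fos measured 47.4, 36.2 and 16.7 FPKM in GT fat, 61.0, 46.2 and 56.1 FPKM in HFD fat and 0.512, 5.54 and 5.87 FPKM in ND fat. All GT and HFD libraries lay above all ND libraries, while GT and HFD overlapped through GT 1. The mean in HFD was 13.7 times that in ND, and 9.54 times without ND 1. The log2 change was 3.75 ± 0.62 (SE; adjusted p = 0.0136, limma) and 3.04 ± 0.38 without ND 1 (adjusted p = 0.00201, limma). The call with all 9 libraries ended without HFD 1 (adjusted p = 0.0705), HFD 2 (0.0565) or HFD 3 (0.0745), at log2 changes of 3.67, 3.87 and 3.73.

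Fosl2, a Fos relative that is expressed more steadily in many tissues, had 12.4, 11.6 and 11.0 FPKM in GT fat, 13.2, 16.6 and 20.2 FPKM in HFD fat and 1.71, 11.1 and 12.0 FPKM in ND fat. Every HFD library was above every other library, and GT and ND overlapped. The log2 difference of HFD from ND, 1.21 ± 0.56 (SE; adjusted p = 0.261, limma), and that without ND 1, 0.48 ± 0.17 (adjusted p = 0.0864), did not pass. Fosb, whose short form lacks the end of the protein, stayed between 0.372 and 0.471 FPKM in GT, 0.531 and 0.662 FPKM in HFD and 0.406 and 1.02 FPKM in ND fat.

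Of the Jun family, Junb had 22.3, 15.4 and 10.6 FPKM in GT fat, 29.4, 20.4 and 26.9 FPKM in HFD fat and 5.31, 5.15 and 10.2 FPKM in ND fat. Both high-fat groups were above ND in every library, and GT overlapped with HFD through GT 1. Junb rose in HFD against ND by log2 1.80 ± 0.35 (SE; adjusted p = 0.0242, limma) and by 1.67 ± 0.34 without ND 1 (adjusted p = 0.0117). The call with 9 libraries ended without HFD 1 (adjusted p = 0.115), HFD 2 (0.0693), HFD 3 (0.121) or GT 2 (0.0600), with log2 changes between 1.69 and 1.94.

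Jund, the member of its family that is usually least inducible, had 11.7, 7.18 and 7.66 FPKM in GT fat, 23.6, 18.3 and 24.4 FPKM in HFD fat and 36.7, 4.55 and 10.1 FPKM in ND fat. ND 1 was the highest library, and without it HFD was above ND and above GT in every library. Jund differed by log2 0.79 ± 0.62 with all libraries (SE; adjusted p = 0.438, limma) and rose by 1.55 ± 0.32 in HFD without ND 1 (adjusted p = 0.0113). Jun, the founding partner of Fos in AP-1, measured 20.7, 17.1 and 17.8 FPKM in GT fat, 27.4, 21.5 and 29.2 FPKM in HFD fat and 3.48, 17.4 and 28.7 FPKM in ND fat. HFD lay above GT in every library and overlapped with ND, and the log2 difference of HFD from ND was 0.99 ± 0.61 (adjusted p = 0.343), or 0.20 ± 0.22 without ND 1 (adjusted p = 0.543).

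Egr1 had 8.78, 9.67 and 6.11 FPKM in GT fat, 12.9, 13.0 and 12.3 FPKM in HFD fat and 1.73, 6.01 and 3.95 FPKM in ND fat. The 3 diets did not overlap, with HFD highest and ND lowest, although GT 3 and ND 2 were close. Egr1 rose in HFD against ND by log2 1.59 ± 0.35 (SE; adjusted p = 0.0397, limma), and by 1.22 ± 0.21 without ND 1 (adjusted p = 0.00624). The 9-library call was close to the threshold: the adjusted p was 0.0649 without ND 3, between 0.146 and 0.157 without 1 of HFD 1, HFD 2 and HFD 3, and between 0.0630 and 0.0845 without 1 of GT 1, GT 2 and GT 3, with log2 changes between 1.57 and 1.65. It also ended at a pseudocount of 0.1 (adjusted p = 0.0543), with no filter (0.0601) and with equal FPKM totals (0.0539).

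Gadd45b had 20.9, 21.0 and 9.54 FPKM in GT fat, 19.4, 17.5 and 28.9 FPKM in HFD fat and 6.04, 7.55 and 7.27 FPKM in ND fat. All high-fat libraries were above all ND libraries, and GT overlapped with HFD. Gadd45b rose in HFD against ND by log2 1.50 ± 0.34 (SE; adjusted p = 0.0437, limma) and by 1.42 ± 0.34 without ND 1 (adjusted p = 0.0220). The 9-library call ended without ND 3 (adjusted p = 0.0762), HFD 1 (0.141), HFD 2 (0.108), HFD 3 (0.202), GT 1 (0.0716) or GT 2 (0.0796), with no filter (0.0646), or without the 3 libraries with testis transcripts (0.0811), at log2 changes between 1.30 and 1.64. The last of these left ND 2 alone in its group, and it was assumed to vary like the others.

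The members named for immediate early response moved less in one direction. Ier3 had 3.79, 5.56 and 3.94 FPKM in GT fat, 2.86, 3.50 and 2.31 FPKM in HFD fat and 3.97, 7.39 and 7.82 FPKM in ND fat. HFD was below GT and below ND in every library, the opposite order to Fos and Egr1. Its log2 difference of HFD from ND was -0.89 ± 0.30 (SE; adjusted p = 0.142, limma), and without ND 1 it fell by 1.16 ± 0.20 (adjusted p = 0.00566). Ier2 had 11.6, 11.0 and 8.51 FPKM in GT fat, 11.7, 10.3 and 10.3 FPKM in HFD fat and 15.8, 8.07 and 7.04 FPKM in ND fat, with ND 1 the highest, and differed by log2 0.14 ± 0.30 between HFD and ND (adjusted p = 0.786), or 0.46 ± 0.16 without ND 1 (adjusted p = 0.0707).

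Macrophage markers moved with diet in the same adipose libraries. The 9 markers summed to 1382 to 3370 FPKM in GT, 3759 to 5301 FPKM in HFD and 67.5 to 555 FPKM in ND fat, none of the 9 was at 0 in a group, and 7 of 9 rose in HFD against ND (9 of 9 without ND 1). The GT library with the lowest macrophage sum, GT 3, was also the lowest GT library for Junb, Fos, Fosb, Fosl2, Egr1, Ier2 and Gadd45b. Jun and Jund were lowest in GT 2 and Ier3 in GT 1. Among the GT libraries GT 3 also had the highest adipocyte sum and the lowest mast cell and red blood cell sums. Mast cell markers summed to 10.5 to 11.6 FPKM in GT, 29.3 to 46.5 FPKM in HFD and 3.71 to 16.7 FPKM in ND fat, and 2 of 5 rose in HFD against ND (4 of 5 without ND 1). Adipocyte markers summed to 25204 to 29790 FPKM in GT, 17605 to 20188 FPKM in HFD and 7502 to 37228 FPKM in ND fat, and 1 of 9 fell in HFD against ND (7 of 9 fell and 1 rose without ND 1). Red blood cell markers summed to 304 to 400.4 FPKM in GT, 287 to 481 FPKM in HFD and 570 to 1477 FPKM in ND fat, and 1 of 5 fell in HFD against ND. Of all 13762 genes in fat, 726 rose and 51 fell in HFD against ND, and 2188 rose and 1154 fell without ND 1. No marker of the last 3 lists was at 0 in a group. The part of these cells in the changes of the members was not tested. In bulk tissue, fewer cells of a type and less RNA per cell cannot be told apart.

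With the extract added to the high-fat diet, no member passed in adipose tissue. Of the 9 tested, 0 passed against HFD and 0 had an unadjusted p under 0.05, while 0 of 13762 genes passed (0% of those tested) and 467 had an unadjusted p under 0.05. Without ND 1 again 0 members passed, where 0.356% of genes passed. At an unadjusted p under 0.05 there were then 5 of 9 members and 2864 of 13762 genes. The median log2 difference of GT from HFD over the 9 members was -0.46, against -0.14 over all genes. In HFD the libraries of Jun, Jund, Fosb, Fosl2 and Egr1 were all above those in GT, and those of Ier3 were all below. How many of all genes separated in this way was not counted, so this only describes the levels. Without ND 1 the largest of these differences were -1.25 ± 0.28 for Jund (SE; adjusted p = 0.0818, limma), -0.80 ± 0.34 for Fos (0.232), -0.68 ± 0.31 for Junb (0.260), -0.60 ± 0.19 for Egr1 (0.146) and 0.48 ± 0.18 for Ier3 (0.188).

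Against ND, GT fat had 0 of 9 members called with all libraries, where 0.639% of genes passed. Fos differed by log2 2.96 ± 0.62 (SE; adjusted p = 0.0868, limma), and 4 of 9 members and 2807 of 13762 genes had an unadjusted p under 0.05. Without ND 1 Fos rose by 2.24 ± 0.38 (adjusted p = 0.0158), the single member of 9 called, where 6.41% of genes rose. Without ND 2 both Fos (3.30, adjusted p = 0.0227, limma) and Egr1 (1.30, adjusted p = 0.0325) passed. That fit gave ND 1, with its testis transcripts, more weight, and 627 of 13762 genes rose and 1938 fell in it. GT libraries of Junb, Fos, Egr1 and Gadd45b were all above those of ND, again with no count over all genes beside it. The contrasts of GT with HFD and of HFD with ND share the HFD libraries, and those of GT and of HFD with ND share the ND libraries.

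In liver Jun, Jund and Egr1 rose on the high-fat diet, and Jun, Jund and Gadd45b fell when the extract was added to it. Fosb and Ier3 did not pass the filter on low values, and Fos passed it only because its 3 HFD libraries reached 1 FPKM, so that it had to differ to be tested. Of the other 7 members, 3 rose, where 11.9% of 10670 genes rose, and 3 fell, where 4.22% of genes fell. Their median log2 change was 1.24 in HFD against ND, with -0.02 over all genes, and -0.94 in GT against HFD, with -0.04 over all genes. Both contrasts share the HFD libraries. Of the 3 members that fell, Gadd45b passed the filter through its HFD and ND libraries alone, as no GT library reached 1 FPKM. The filter therefore leaned towards a fall of Gadd45b in GT.

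**Figure D2:**
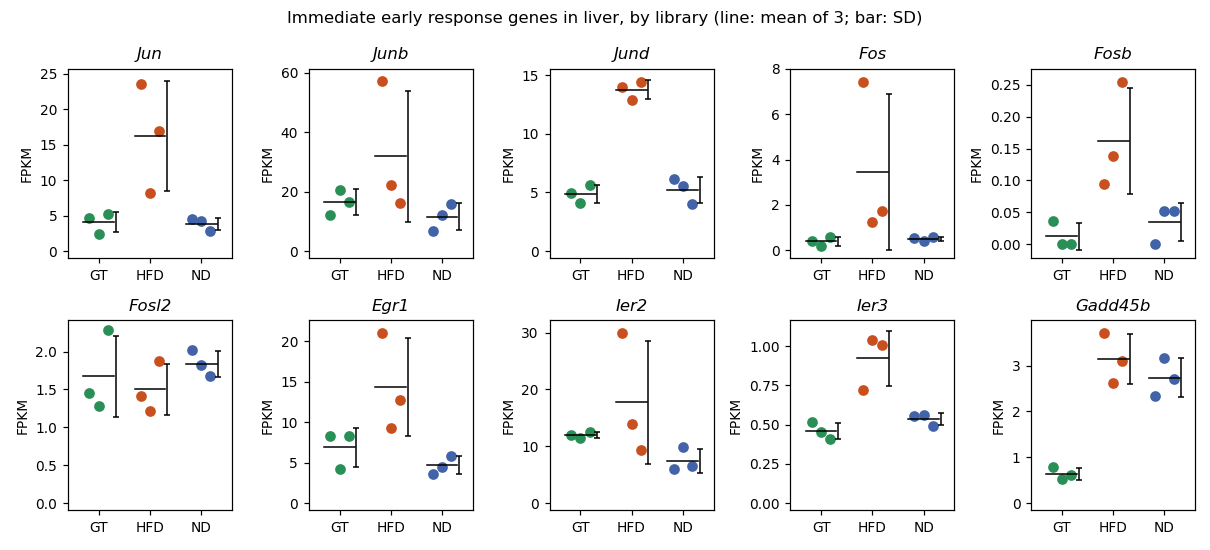
FPKM of each of the 10 members in the 9 liver libraries, by diet (GT, HFD, ND), with 1 point per library, a line at the mean of 3 and a bar of 1 SD. HFD 1 is the highest library for Jun, Junb, Fos, Egr1, Ier2 and Gadd45b, while Jund sits between 12.8 and 14.4 in all 3 HFD libraries and at most 6.12 in the other 6.

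Jund had 4.95, 4.10 and 5.60 FPKM in GT liver, 14.0, 12.8 and 14.4 FPKM in HFD liver and 6.12, 5.53 and 4.01 FPKM in ND liver. HFD stood apart from both other diets, which overlapped, and its HFD libraries varied least, relative to their mean, among the 10 members. Jund rose by log2 1.26 ± 0.17 in HFD against ND (SE; adjusted p = 0.00183, limma) and fell by 1.33 ± 0.17 in GT against HFD (adjusted p = 0.00527). Both calls held under every alternative run.

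Jun measured 4.68, 2.46 and 5.20 FPKM in GT liver, 23.5, 8.17 and 17.0 FPKM in HFD liver and 4.48, 4.23 and 2.91 FPKM in ND liver. Again HFD was above both other diets in every library, and GT and ND overlapped. The mean in HFD was 4.19 times that in ND. Jun rose by log2 1.72 ± 0.33 in HFD against ND (SE; adjusted p = 0.00842, limma), a call that held under every alternative run, and fell by 1.68 ± 0.33 in GT against HFD (adjusted p = 0.0244). The second call ended with no filter (adjusted p = 0.0567), without HFD 3 (-1.60, adjusted p = 0.0785) and without GT 2 (-1.42, adjusted p = 0.0687).

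Junb, the most abundant member in liver on every diet, had 12.2, 20.7 and 16.7 FPKM in GT, 57.1, 22.3 and 16.2 FPKM in HFD and 6.90, 12.2 and 15.9 FPKM in ND liver. HFD 1 was far above the rest, HFD 3 was within 1 FPKM of ND 3, and GT overlapped with both. Neither the log2 difference of HFD from ND, 1.24 ± 0.41 (SE; adjusted p = 0.0578, limma), nor that of GT from HFD, -0.74 ± 0.41 (adjusted p = 0.310), passed. Without HFD 3 the first of these was 1.61 (adjusted p = 0.0359).

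Fos was a low gene in liver, with 0.409, 0.198 and 0.602 FPKM in GT, 7.41, 1.23 and 1.72 FPKM in HFD and 0.531, 0.391 and 0.573 FPKM in ND. HFD lay above both other diets, most of all in HFD 1, and GT and ND overlapped. Its log2 difference of HFD from ND, 1.31 ± 0.39 (SE; adjusted p = 0.0386, limma), was called. Fos entered the fit only through its HFD libraries, so neither this p-value nor those of GT against HFD count as support for a difference. That call ended with no filter (adjusted p = 0.0811), with equal FPKM totals (0.0621), without ND 1 (0.105), ND 2 (0.0846) or ND 3 (0.105), and without GT 1 (0.0513), GT 2 (0.0617) or GT 3 (0.0564), at changes between 1.20 and 1.35. Without HFD 1 the change was 0.72 (adjusted p = 0.0269). In GT against HFD the log2 difference of Fos was -1.41 ± 0.39 (adjusted p = 0.0594), -2.47 at a pseudocount of 0.1 (adjusted p = 0.0398) and -0.82 without HFD 1 (adjusted p = 0.0344).

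Fosl2 did not follow Fos: it had 1.46, 1.28 and 2.28 FPKM in GT liver, 1.41, 1.22 and 1.88 FPKM in HFD liver and 2.02, 1.83 and 1.67 FPKM in ND liver. The 3 diets overlapped, and its log2 difference of HFD from ND was -0.19 ± 0.17 (SE; adjusted p = 0.450, limma). Fosb was listed at 0 in GT 2, GT 3 and ND 1 and at 0.0366 FPKM in GT 1, at 0.0940 to 0.255 FPKM in HFD and at no more than 0.0525 FPKM in ND, so that its 3 highest libraries were those of HFD.

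Egr1 had 8.32, 4.15 and 8.23 FPKM in GT liver, 21.0, 9.22 and 12.8 FPKM in HFD liver and 3.62, 4.48 and 5.83 FPKM in ND liver. HFD was above both other diets in every library, and GT overlapped with ND. Egr1 rose by log2 1.39 ± 0.30 in HFD against ND (SE; adjusted p = 0.0130, limma), which ended without ND 1 (1.25, adjusted p = 0.0618), and its difference of GT from HFD was -0.94 ± 0.30 (adjusted p = 0.0945). Ier2 had 12.0, 11.5 and 12.5 FPKM in GT, 30.0, 13.9 and 9.27 FPKM in HFD and 6.06, 9.82 and 6.45 FPKM in ND liver. GT was above ND in every library while HFD overlapped with both, and the difference of HFD from ND was 1.02 ± 0.33 (adjusted p = 0.0531). It passed without ND 2 (1.21, adjusted p = 0.0481), without HFD 3 (1.37, adjusted p = 0.0233) and with a filter at 5 FPKM (0.0493).

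Gadd45b had 0.785, 0.526 and 0.613 FPKM in GT liver, 3.71, 2.62 and 3.10 FPKM in HFD liver and 2.33, 3.17 and 2.70 FPKM in ND liver. HFD and ND overlapped, and GT was below both in every library, at 0.204 times the HFD mean and 0.234 times the ND mean. No GT library reached 1 FPKM, so Gadd45b passed the filter on low values through HFD and ND, where it was higher. Gadd45b fell by log2 1.33 ± 0.15 in GT against HFD (SE; adjusted p = 0.00462, limma) and by 1.18 ± 0.15 in GT against ND (adjusted p = 0.00439), and differed by 0.15 ± 0.15 between HFD and ND (adjusted p = 0.521). Both falls held under every alternative in which the gene was tested. In GT against ND it was the single member of 8 called, where 1.33% of genes fell. Ier3, known as a target of NF-κB, had 0.514, 0.451 and 0.410 FPKM in GT, 0.722, 1.04 and 1.01 FPKM in HFD and 0.554, 0.563 and 0.490 FPKM in ND liver, with HFD above both other diets in every library and every value near or under 1 FPKM.

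Library HFD 1 was the highest of the 9 liver libraries for Jun, Junb, Fos, Egr1, Ier2 and Gadd45b. Without it Jun (1.41, adjusted p = 0.0215, limma), Jund (1.25, 0.00598) and Egr1 (1.09, 0.0340) still passed in HFD against ND. In GT against HFD Jund, Gadd45b and Jun (-1.37, adjusted p = 0.0481) did. Macrophage markers summed to 26.7 to 39.6 FPKM in GT, 44.7 to 68.3 FPKM in HFD and 43.0 to 56.9 FPKM in ND liver, and 3 of 6 tested fell in GT against HFD. None of the 9 was at 0 in a group. Adipocyte markers summed to 230 to 356 FPKM in GT, 272 to 365 FPKM in HFD and 112 to 145 FPKM in ND liver, with Lep and Plin1 at 0 in GT, no marker at 0 in HFD, and Adipoq, Lep and Retn at 0 in ND. Within these sums Cfd alone had 131 to 202 FPKM in GT, 54.7 to 193 FPKM in HFD and 0.720 to 3.11 FPKM in ND liver. Red blood cell markers summed to 113 to 189 FPKM in GT, 196 to 333 FPKM in HFD and 124 to 156 FPKM in ND liver, with none at 0 in a group, and 3 of 5 rose in HFD against ND and 2 of 5 fell in GT against HFD. The part of these cells in the members' changes was not tested. Over all 10670 liver genes 11.9% rose in HFD against ND and 4.22% fell in GT against HFD.

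**Figure D3:**
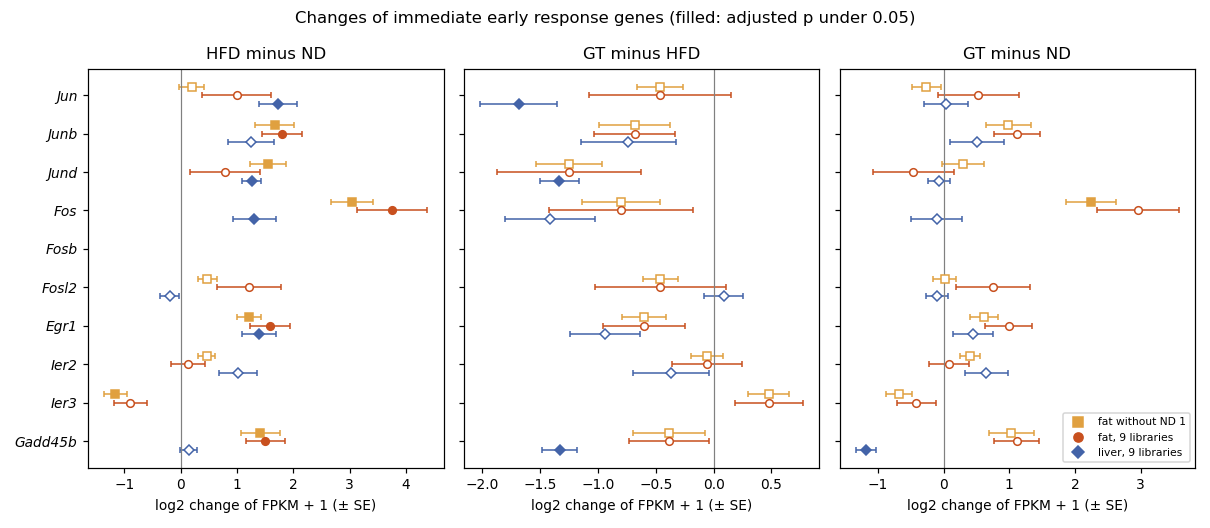
Log2 change of FPKM + 1 with its SE for the members in HFD against ND, GT against HFD and GT against ND, in fat without ND 1 (squares), fat with 9 libraries (circles) and liver (diamonds), filled where the adjusted p was under 0.05. Fosb has no point and Ier3 none in liver because they were not tested. Fos in fat lies farthest to the right of 0, and Gadd45b is filled left of 0 in liver in both contrasts with GT.

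Setting the tissues side by side, Fos, Fosl2 and Gadd45b were higher in adipose tissue than in liver on all 3 diets. So was Ier3, which passed the filter on low values only through its fat libraries. In GT mice Jun was also higher, which made 5 of 9 members called, where 46.7% of 14390 genes were higher in fat. In HFD mice it was 4 of 9, where 50.8% of genes were higher, and in ND mice 5 of 9, where 52.5% were. These shares are close to the members' own. The counts include Ier3, whose p-values do not count as support for a difference because it entered through the tissue where it was high. Fos differed most in GT mice, with a mean of 33.4 FPKM in fat against 0.403 FPKM in liver, a log2 difference of 4.51 ± 0.56 (SE; adjusted p = 7.7e-06, limma). In HFD mice its means were 54.4 and 3.45 FPKM (3.89 ± 0.56, adjusted p = 2.91e-05), and in ND mice 3.97 and 0.498 FPKM (1.45 ± 0.56, adjusted p = 0.0356).

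Junb, Egr1 and Ier2 were called between the tissues on no diet. Junb averaged 16.1 ± 5.85 FPKM in fat and 16.5 ± 4.25 FPKM in liver of GT mice (SD, n = 3 each), 25.6 ± 4.63 FPKM and 31.9 ± 22.1 FPKM in HFD mice, and 6.88 ± 2.86 FPKM and 11.7 ± 4.53 FPKM in ND mice. With equal FPKM totals the sign of their small differences turned in 5 cases. Among the ND calls, Jun ended without adipose ND 2 (adjusted p = 0.0752), adipose ND 3 (0.132) or liver ND 3 (0.0760), and Fosl2 without adipose ND 3 (0.0568). Fos in ND mice ended without adipose ND 2 (0.126), adipose ND 3 (0.143) or any liver ND library (0.0668 to 0.0815). Without adipose ND 1, Jund passed in GT mice (0.72, adjusted p = 0.0124), and Jun (0.75, 0.0407) and Jund (0.64, 0.0227) in HFD mice.

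The high-fat response itself differed between the tissues for Gadd45b. It rose in fat and did not pass in liver, and the difference of the 2 changes was log2 1.36 ± 0.37 (SE; adjusted p = 0.0354, limma), 1 of 8 members tested, where 5.98% of 10042 genes had a higher response in fat. Without adipose ND 1 the difference was 1.27 ± 0.36 (adjusted p = 0.0191), where 11.7% of genes were higher, and Jun had a lower response in fat (-1.52 ± 0.45, adjusted p = 0.0247), where 9.58% of genes were lower. The Gadd45b call with all libraries ended at a pseudocount of 0.1 (adjusted p = 0.0561) and without adipose HFD 1 (0.0560) or HFD 3 (0.107), liver ND 1 (0.0619), ND 2 (0.0795) or ND 3 (0.0786), or liver HFD 1 (0.0526), HFD 2 (0.1004) or HFD 3 (0.0707). Its difference was then between 1.15 and 1.45.

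Fos, among the 8 members of the response tests, entered them only because its 3 liver HFD libraries reached 1 FPKM. None of its p-values here therefore count as support for a difference. With a difference of 2.45 ± 0.78 (adjusted p = 0.0677, limma) and 1.73 ± 0.60 without adipose ND 1 (0.0521), Fos did not pass. It did without adipose ND 2 (2.79, adjusted p = 0.0259), without adipose ND 3 (2.82, 0.0259) and without liver HFD 1 (3.04, 0.0279), and Fosl2 passed without adipose ND 2 (1.74, 0.0449) or ND 3 (1.80, 0.0389). Leaving out adipose ND 2 or ND 3 gave ND 1 more weight, and 1367 and 1614 of 10042 genes then had a higher response in fat. Responses to the extract differed between the tissues for 0 of 8 members, with 0.00996% of genes called, and again for 0 of 8 without adipose ND 1, with 3.75% called. At an unadjusted p under 0.05 there were 1 member and 638 of 10042 genes with all libraries, and 3 members and 2253 genes without adipose ND 1. That of Gadd45b was 0.94 ± 0.37 (adjusted p = 0.709).

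The make-up of the Fos family changed with diet in both tissues when its 4 genes, Fosl1 included, were summed by FPKM. Fos made up 68.5% ± 10.4 of that sum in GT fat, 73.5% ± 5.36 in HFD fat and 23.4% ± 11.7 in ND fat (SD, n = 3 each). In liver it made up 17.0% ± 4.22 in GT, 56.1% ± 22.1 in HFD and 20.2% ± 3.70 in ND. Without ND 1 the ND fat shares of Fos were 30.9% in ND 2 and 29.3% in ND 3, and those of Fosl2 were 61.6% and 60.0%, while ND 1 had 9.95% Fos, 33.2% Fosl2 and 43.0% Fosl1. With all libraries Fosl2 held most of the rest, and was the largest part in ND fat, GT liver and ND liver, at 51.6%, 73.9% and 74.7%. These shares follow from the levels above and were not tested. The summed family FPKM was 47.2 ± 16.5 in GT fat, 73.9 ± 6.84 in HFD fat and 14.4 ± 8.06 in ND fat, with 17.96 and 20.01 in ND 2 and ND 3 and 5.14 in ND 1, against 2.27 ± 0.747, 5.30 ± 3.33 and 2.46 ± 0.115 in GT, HFD and ND liver.

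The Jun family was more evenly split. Jun, Junb and Jund held 35.3%, 34.6% and 30.0% of their sum in HFD fat, with SDs of at most 1.68 points over 3 libraries. In GT fat they held 43.4%, 36.3% and 20.2%. In ND fat ND 1 differed from the others, with 80.7% Jund against at most 20.7% in ND 2 and ND 3. Junb was the largest part in liver on every diet, at 64.2% ± 10.5 in GT, 48.7% ± 13.4 in HFD and 54.9% ± 15.1 in ND (SD, n = 3 each). The family summed to 43.5 ± 9.85, 73.7 ± 11.7 and 40.5 ± 11.8 FPKM in GT, HFD and ND fat and to 25.5 ± 3.20, 61.9 ± 28.5 and 20.8 ± 2.86 FPKM in GT, HFD and ND liver.

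**Figure D4:**
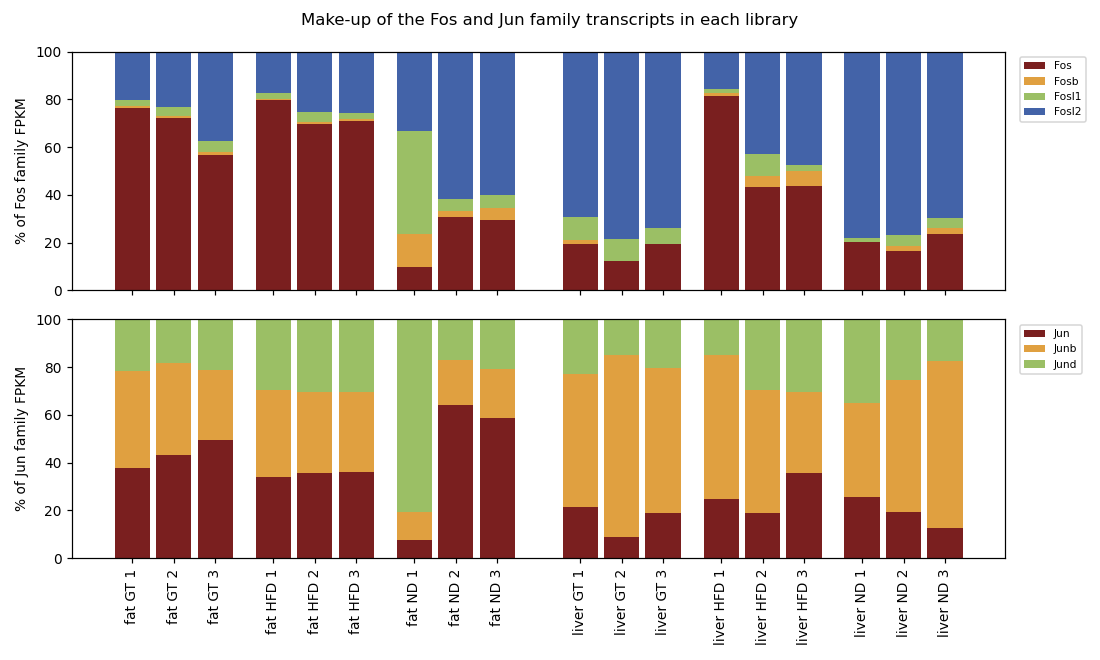
Share of the summed FPKM of the Fos family (Fos, Fosb, Fosl1, Fosl2; top) and the Jun family (Jun, Junb, Jund; bottom) in each of the 18 libraries, in percent. The Fos part runs between 56.7% and 79.7% in the GT and HFD fat libraries, and reaches 81.5% in liver HFD 1.

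Across libraries the members did not vary as 1 block. Over the 8 adipose libraries without ND 1, the log2 levels of Fos correlated with those of Gadd45b (Pearson r = 0.94), Junb (0.94), Ier2 (0.93) and Egr1 (0.92), and with those of Ier3 at -0.87. Jun went with Jund (0.77) and Fosb (0.77) but hardly with Fos (0.22). Taken as deviations from diet means, Fos still went with Ier2 (0.88) and Gadd45b (0.85), and Jun with Jund (0.96), while Fos and Ier3 stood at 0.02. In the 9 liver libraries Jun went with Jund (0.93), Fos (0.91) and Egr1 (0.90) and Junb with Ier2 (0.88), and Fosl2 had an r of -0.07 with Jun. These are descriptions over libraries that share diets and a tissue, with no test.

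**Figure D5:**
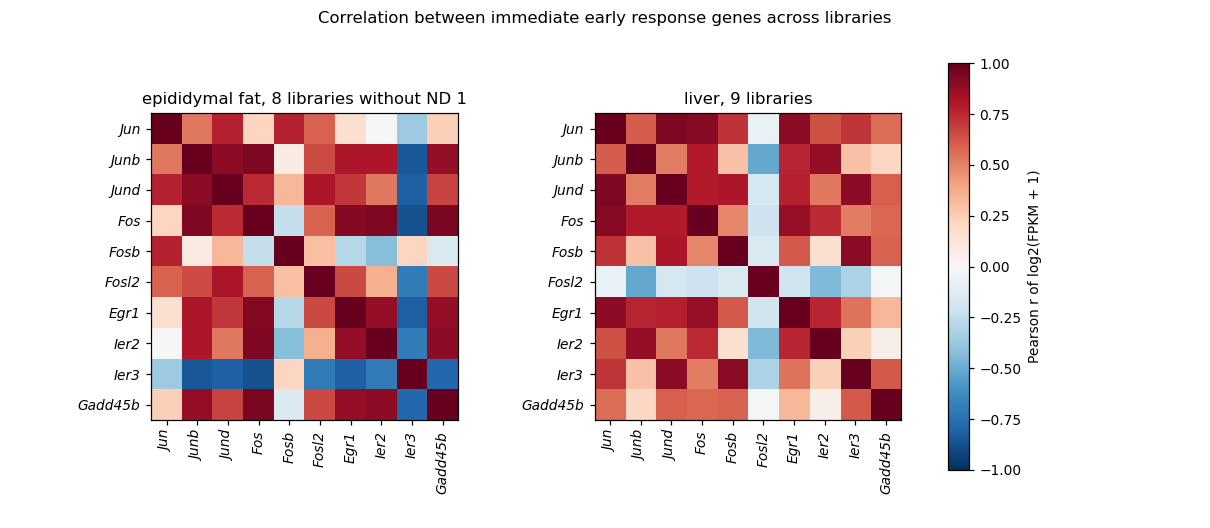
Pearson r between the log2(FPKM + 1) levels of each pair of the 10 members, in 8 fat libraries without ND 1 (left) and 9 liver libraries (right). In fat the row of Ier3 is negative against every member but Fosb, and in liver the row of Fosl2 is below 0 against every other member, between -0.51 and -0.01.

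A search for like genes passed over names of predicted, clone, pseudogene, small RNA and mitochondrial entries, and every symbol that begins with Rn. In fat it covered 9183 genes at 5 FPKM or more in at least 3 libraries. Members at that level are in this number but were not ranked. Most like Fos over the 8 libraries were Lrrc25 (r = 0.9995), Unc93b1 (0.999) and Evl (0.999). Nearest to Junb was Ckap4 (0.998), to Egr1 Tlr2 (0.988), to Gadd45b Scpep1 (0.985) and to Ier3 Rabgap1l (0.976). In liver, of 6784 genes over 9 libraries, Fabp4 was nearest to both Jund (0.987) and Jun (0.947), Crip2 to Gadd45b (0.963), Tax1bp3 to Egr1 (0.930), Gimap9 to Junb (0.915) and Bcas3 to Fos (0.913). Zfp36, an immediate early RNA-binding protein, was the third gene for Junb (0.841), and Ccn1, a secreted immediate early product, the second for Fos (0.888). With few libraries and 3 diets, many genes reach such values.

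Other genes of the pathway were followed in 5 lists of 80 genes, 79 of them in the table. Among the AP-1 partners, which are Fosl1 and other leucine-zipper proteins, 2 of 11 tested rose in HFD fat against ND fat and 0 fell. Of all 13762 genes 5.28% rose in that contrast. Atf3, a stress-induced partner of Jun, had 84.1, 69.0 and 24.6 FPKM in GT, 130, 115 and 151 FPKM in HFD and 0.529, 4.55 and 3.47 FPKM in ND fat. It was higher in every high-fat library than in any ND library, by log2 5.30 ± 0.59 in HFD (SE; adjusted p = 0.00514, limma) and 3.99 ± 0.59 in GT (adjusted p = 0.0366), both relative to ND. Among the other immediate early factors 2 of 24 rose in HFD fat, the kinase Plk2 (2.43, adjusted p = 0.00878) and Ier5 (1.89, adjusted p = 0.0105).

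In the lists of feedback inhibitors, upstream kinases and factors, and heat shock genes, 0 of 17, 0 of 16 and 0 of 8 passed in that contrast with all libraries in limma, with 4, 2 and 3 at an unadjusted p under 0.05. Without ND 1 the counts that rose and fell were 3 and 0 for AP-1 partners, 6 and 2 for other immediate early factors, 5 and 1 for feedback inhibitors, 5 and 1 for upstream kinases and factors and 3 and 0 for heat shock genes. Of all genes 15.9% rose and 8.39% fell in that fit. Egr2, a relative of Egr1, rose by 3.59 ± 0.34 without ND 1 (adjusted p = 0.00142), Dusp5, a phosphatase of ERK, by 1.64 ± 0.32 (0.00907), and the kinase Map2k1 by 0.79 ± 0.10 (0.00221). In GT against HFD fat 0 genes of the 5 lists passed in limma, with or without ND 1, while 0, 2, 0, 0 and 1 in the order above had an unadjusted p under 0.05 with all libraries and 2, 10, 5, 2 and 3 without ND 1.

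In liver HFD against ND, the lists gave 2 of 7 AP-1 partners up, 4 of 18 other immediate early factors up, 3 of 12 feedback inhibitors up, 1 of 16 upstream genes down, and 2 of 7 heat shock genes up with 2 down. Of all 10670 genes 11.9% rose and 712 genes fell. Hes1, a transcriptional repressor that acts downstream of Notch signalling, rose by log2 1.66 ± 0.24 (SE; adjusted p = 0.00243, limma). Gadd45a, a relative of Gadd45b, rose by 1.41 ± 0.24 (0.00561), and Btg2, an antiproliferative gene, by 1.41 ± 0.31 (0.0131). The small heat shock gene Hspb1 had 8.81, 5.81 and 19.5 FPKM in GT, 27.4, 32.0 and 25.1 FPKM in HFD and 4.72, 5.16 and 6.81 FPKM in ND liver, with HFD above both other diets in every library. It rose by 2.16 ± 0.32 in HFD against ND (adjusted p = 0.00307) and fell by 1.39 ± 0.32 in GT against HFD (adjusted p = 0.0395).

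In liver GT against HFD 0 of 7 AP-1 partners passed in limma, with 3 at an unadjusted p under 0.05, 1 of 18 other immediate early factors fell (Rhob, -0.94, adjusted p = 0.0137), and 1 of 12 feedback inhibitors rose (Spry4, 0.90, adjusted p = 0.00932) while 1 fell (Btg1, -0.89, adjusted p = 0.0153). Of all 10670 genes 4.22% fell and 122 genes rose. In GT against ND liver Gadd45a rose by 1.31 ± 0.24 (SE; adjusted p = 0.0209, limma), where Gadd45b fell. Gadd45a measured 4.87, 6.36 and 4.86 FPKM in GT and 1.01, 2.45 and 1.38 FPKM in ND liver, without overlap. Maff, a small MAF protein, rose in GT against ND liver by 1.64 ± 0.24 (adjusted p = 0.00925). Srf, which encodes serum response factor, was listed at 0 in every library. Alb was also listed at 0 in liver HFD 3, so a listed 0 need not mean that a gene was silent.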

How the data were processed

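The authors' table holds FPKM per gene for 18 libraries and its deposited values were left unscaled; each column belonged to a sample. Per the labels' protocols, polyadenylated RNA was sequenced from TruSeq libraries. Tools named in the submitters' processing notes are Cufflinks 2.1.1, STAR 2.4.0 and CASAVA 1.8.2, with a genome build not given in the sources used here. Of 23474 identifiers 22671 matched a symbol in GENCODE M21.

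For each tissue limma 3.58.1 (R 4.3.3) estimated a mean of log2(FPKM + 1) for every diet, with variances moderated by eBayes (trend and robust both on). A gene entered when at least 3 of the 9 libraries of a tissue reached 1 FPKM, leaving 13762 genes in fat and 10670 in liver. Tissue contrasts and differences of responses came from 1 fit of 18 libraries. P-values were adjusted by Benjamini-Hochberg over all genes of a fit, with a threshold of 0.05. FPKM carries no read numbers, so no count test or counting interval was used, and 3 libraries a group limit the precision. No 2 libraries held identical values.

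Simulated libraries in which HFD differed from ND by log2 1 in 100 genes and by log2 2 in another 100 were used to check the fit. It recovered 0 and 19 in the 9 adipose libraries, 44 and 91 in the 8 without ND 1, and 67 and 97 in liver, with 1, 0 and 7 false calls.

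All 10 members are named in every comparison, and of each list up to 4 genes with the smallest p in a comparison, save that the library values of Gadd45a, Hspb1 and Atf3, the listed zeros of Srf and the third and second neighbours Zfp36 and Ccn1 were picked after their values were seen. A result that this rule names is not reported here. The members, the lists and the tests were chosen with earlier results of these data known. Leaving out ND 1 repeats a step of that earlier work. Cell type markers were taken from general knowledge. Results were recomputed at a pseudocount of 0.1, with the low-value filter dropped or set at 5 FPKM, with FPKM totals made equal, with a replicate block, and with each library left out in turn. They were also recomputed without adipose ND 1, ND 3 and HFD 1, which hold the most testis transcripts. A liver fit left out HFD 2 and GT 3, which hold the most muscle transcripts.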

Additional observations from a re-analysis of the deposited data

Results flagged for a closer look

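Gadd45b had a larger log2 change in HFD against ND in fat than in liver by the test of the difference between the tissues, 1.36 with all libraries and 1.27 without adipose ND 1, and the cause was not tested. Jun had a smaller change in fat than in liver without adipose ND 1, by -1.52 on the log2 scale. With all libraries that difference was -0.73 ± 0.74 (SE; adjusted p = 0.504, limma) and did not pass.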

How the results depend on the processing

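Of 27 member calls with all libraries, 16 held under every alternative in which they were tested. The 27 include Fos in liver HFD against ND and Ier3 between the tissues. The counts of members called moved as follows. In adipose HFD against ND, 4 became 2 with no filter, 0 with the replicate block and 0 to 6 with 1 library left out. In adipose GT against ND, 0 became 0 to 2 with 1 library left out. In liver HFD against ND, 4, Fos included, became 2 to 6 with 1 library left out. In ND adipose against liver, 5, Ier3 included, became 2 to 5 likewise. In liver GT against ND, 1 became 0 with a filter at 5 FPKM, where Gadd45b was not tested. For the difference of the high-fat response between tissues, 1 became 0 at a pseudocount of 0.1 and 0 with the replicate block. It became 2 with no filter (Ier3 added, -1.21, adjusted p = 0.0234, limma) and 0 to 3 with 1 library left out. Fos was among the members tested, and its p-values do not count as support.

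No call turned its sign. With equal FPKM totals these uncalled values did: liver HFD against ND Gadd45b -0.012, liver GT against ND Jun -0.020, GT adipose against liver Junb 0.39 and Ier2 0.24, HFD adipose against liver Junb 0.52, Egr1 0.53 and Ier2 0.10, the difference of the high-fat response for Jund 0.10, and that of the extract response for Junb -0.13 and Jund -0.12. Without the libraries with testis transcripts, which left ND 2 alone in its group, Jund in adipose GT against ND became 0.80. Without liver HFD 2 and GT 3, which held the most muscle transcripts, Fosl2 in liver GT against HFD became -0.15. Jun in liver GT against ND became -0.12 in that fit. Liver HFD 3, with 23.4 FPKM of muscle markers, stayed in it. The lone adipose ND 2 of the testis setting was assumed to vary like the other groups. Leaving out 1 library turned the sign of uncalled values within these ranges: adipose HFD against ND Ier2 -0.069 to 0.46; adipose GT against HFD Ier2 -0.14 to 0.067; adipose GT against ND Jun -0.26 to 1.10, Jund -1.09 to 0.30 and Ier2 -0.13 to 0.40; liver GT against HFD Fosl2 -0.071 to 0.19 and Ier2 -0.72 to 0.074; liver GT against ND Jun -0.12 to 0.30, Jund -0.22 to 0.033, Fos -0.20 to 0.0059 and Fosl2 -0.26 to 0.0019; GT adipose against liver Junb -0.31 to 0.19 and Egr1 -0.035 to 0.42; HFD adipose against liver Junb -0.49 to 0.39 and Egr1 -0.34 to 0.21; ND adipose against liver Egr1 -0.60 to 0.081; the high-fat response Jund -1.10 to 0.28 and Egr1 -0.17 to 0.51; the extract response Junb -0.46 to 0.42, Jund -0.11 to 0.20 and Ier2 -0.13 to 0.67. The cause was not tested.

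Equal FPKM totals moved the median log2 change over all genes to 0.41 from 0.13 in adipose HFD against ND, to 0.32 from 0.08 in adipose GT against ND, to -0.20 from -0.02 in liver HFD against ND, to 0.084 from -0.04 in liver GT against HFD, to 1.07 from 0.71, 1.36 from 0.89 and 0.90 from 0.81 in GT, HFD and ND adipose against liver, to 0.71 from 0.23 in the difference of the high-fat response and to -0.22 from -0.06 in that of the extract response. It moved the share of rises among calls to 41.8% from 64.0% in liver HFD against ND, to 32.7% from 21.3% in liver GT against HFD and to 88.9% from 70.1% in the difference of the high-fat response. Deviations of same-numbered libraries correlated above 0.1 in 5 of 27 pairs between tissues, 6 of 9 in adipose tissue and 4 of 9 in liver. They did so in all 3 pairs for adipose GT against ND alone (0.258, 0.124 and 0.189), where 0 members passed with the block as well. For adipose HFD against ND the 3 were 0.643, 0.483 and 0.0948, and the block gave adjusted p = 0.0525 for Fos, 0.0728 for Junb, 0.0813 for Egr1 and 0.124 for Gadd45b. With no read numbers, the precision of levels near 0 is unknown.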
